A study of Mus musculus with 5 samples.

Results

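Desmosomes are spot-like junctions that tie the keratin filaments of neighbouring epithelial cells together. Their adhesive part is made of the desmosomal cadherins, which are the desmogleins (Dsg genes) and desmocollins (Dsc genes). Inside the cell these cadherins bind the armadillo proteins plakoglobin (Jup) and the plakophilins (Pkp genes), which bind desmoplakin (Dsp), the plakin that holds the keratin filaments. The plakins periplakin (Ppl) and envoplakin (Evpl) lie near desmosomes in stratified epithelia and are also scaffold proteins of the cornified envelope. Perp encodes a membrane protein that stratified epithelia need for stable desmosomes. The bladder urothelium is a stratified epithelium that is stretched with each filling.

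The 10 genes described here are these desmosome and plakin genes (Dsp, Jup, Pkp1, Pkp2, Pkp3, Dsg2, Dsc2, Ppl, Evpl and Perp), taken by symbol from 24970 genes counted in each library. All 10 were found and all 10 passed the filter on low counts, which left 14779 genes for testing. RNA came from dissected bladder urothelium of 5 mice aged 10 weeks, with 1 library per mouse. The 2 wild types (WT 1 and WT 2) are labelled C57Bl/6. The 3 knockouts (KO 1, KO 2 and KO 3) are labelled Krt5CreERT2;Ncstnflox/flox, so they carry a Cre recombinase, active after induction, under the promoter of the basal keratin gene Krt5, and floxed alleles of Ncstn, which encodes the gamma-secretase subunit nicastrin. The labels give no Cre or floxed allele for the wild types and no background strain for the knockouts, so loss of Ncstn cannot be told apart from Cre, its induction or strain background. Cells that never expressed Krt5, and do not descend from cells that did, keep Ncstn in this model.

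Gene counts per library ran from 12608836 to 27188499. Signs of RNA composition were separate between genotypes: the ribosomal RNA precursor Rn45s held 7.84% and 3.23% of gene counts in WT mice, against 1.53%, 1.14% and 0.608% in KO mice, and genes held 49.3% and 54.9% of tallied reads against 56.2%, 56.3% and 60.6%. Their part in the results was not tested. The urothelial label was checked against markers: 7 umbrella cell genes summed to 8274 and 9002 CPM (counts relative to library size, after TMM scaling) in the wild types and 12909 to 14184 in the knockouts, and 5 mesothelial markers, of another epithelium that carries desmosomes, summed to under 1 CPM in every library. Connective tissue was present too, with 10 fibroblast markers at 15291 and 17419 CPM in the wild types and 9121 to 10810 in the knockouts. In such bulk samples, fewer cells of a type and less RNA per cell cannot be told apart.

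Of the 10 genes, 4 rose in the knockouts (Evpl, Jup, Pkp2 and Ppl, by 1.34-fold to 1.55-fold), 2 fell (Pkp1 and Dsc2, 1.49-fold and 1.37-fold lower) and 4 did not pass the test (Dsp, Perp, Dsg2 and Pkp3). The test was edgeR's quasi-likelihood test over all genes with Benjamini-Hochberg adjustment at 0.05. In the same test 19.7% of all tested genes passed, of which 9.64% rose and 10.0% fell, as shares of all tested genes. The median log2 fold change of the 10 was 0.26, against 0.01 over all tested genes. The CPM values of the genotypes did not overlap for 7 of the 10 genes, 5 higher and 2 lower in the knockouts, whereas 51.0% of all tested genes showed no overlap, 25.9% with the knockouts above and 25.1% with them below.

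**Figure D1:**
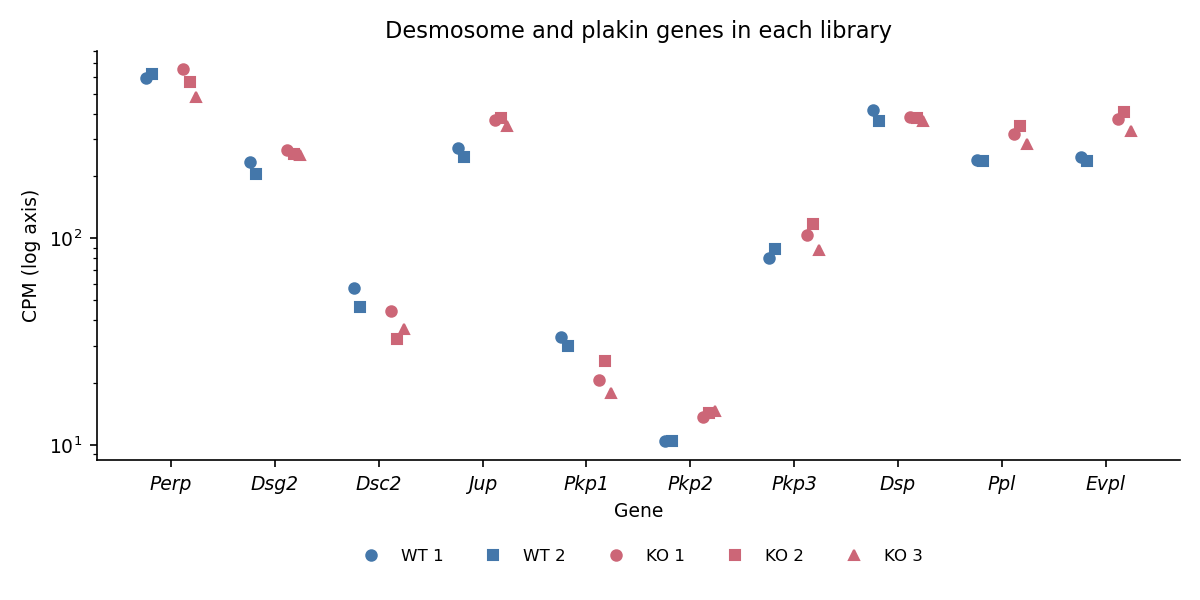
CPM (log axis) of the 10 desmosome and plakin genes in each of the 5 libraries; each point is 1 mouse, blue for the wild types and red for the knockouts. All 3 knockouts lie above both wild types for Evpl, Jup, Pkp2, Ppl and Dsg2 and below both for Pkp1 and Dsc2, and the genotypes overlap for Dsp, Perp and Pkp3.

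Start-site sequence was at hand for 2 of the 10 genes, Jup and Dsp. These are the sequences printed, of a pair of direct binding partners of which Jup rose and Dsp did not pass. Each run is the 250 bases before the RefSeq start site on GRCm38.p6, read 5′ to 3′ on the gene's own strand, at chr11:100397791-100398040 on the minus strand for Jup and at chr13:38151044-38151293 on the plus strand for Dsp. Capitals mark matches to searched motifs.
Jup: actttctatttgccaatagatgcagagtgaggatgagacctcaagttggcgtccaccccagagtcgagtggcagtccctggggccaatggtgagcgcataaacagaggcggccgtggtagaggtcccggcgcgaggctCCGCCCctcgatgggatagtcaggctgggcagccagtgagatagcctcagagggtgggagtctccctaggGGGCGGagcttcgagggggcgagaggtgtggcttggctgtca
Dsp: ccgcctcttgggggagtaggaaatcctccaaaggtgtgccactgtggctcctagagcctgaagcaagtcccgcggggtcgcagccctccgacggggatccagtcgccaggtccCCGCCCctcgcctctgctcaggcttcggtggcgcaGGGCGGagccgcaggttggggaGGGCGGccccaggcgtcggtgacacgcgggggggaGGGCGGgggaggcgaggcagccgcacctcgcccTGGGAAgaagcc

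Motifs were searched on both strands, and no marked matches overlap. GGGCGG, the GC box of Sp and Klf factors, matched at 2 places before Jup and at 4 before Dsp. At least 1 match is in 32.7% of 32851 RefSeq windows of the same length. G and C made up 62.0% of the Jup window and 72.4% of the Dsp window, against a median of 52.4% over all windows. TGGGAA, the core that the Notch effector RBPJ binds, matched at 1 place, 12 bases before the Dsp start site, and it is in 21.6% of all windows. The letters of Grainyhead-like factors, AACCNGTT, are in neither window and in 1.79% of all windows. Those of AP-1, TGANTCA, are in neither window and in 6.75% of all. An E-box, CACGTG, is in neither window and in 6.02% of all. These matches describe letters and show no binding.

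Desmosomal cadherins came first in the order of roles. Dsg2 (chromosome 18, 20558074 to 20604521, GRCm38), the desmoglein of simple and stratified epithelia, reached 233 (WT 1) and 205 CPM (WT 2) in the wild types, against 266 (KO 1), 255 (KO 2) and 253 CPM (KO 3) in the knockouts, and later values keep this order of libraries. All 3 knockouts lay above both wild types, by little. The log2 fold change of Dsg2 was 0.24 ± 0.10 (SE), short of the threshold (edgeR adjusted p = 0.120, 95% interval 0.02 to 0.45).

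Dsc2 (chromosome 18, 20030633 to 20059554), which encodes the widely expressed desmocollin, stood at 57.2 and 46.6 CPM in the wild types and at 44.4, 32.7 and 36.3 CPM in the knockouts. Every knockout was below every wild type, but KO 1 lay close to WT 2. Dsc2 fell by 0.45 ± 0.14 (SE) on the log2 scale (edgeR adjusted p = 0.0498). This call lies at the threshold and depended on the libraries kept: leaving out KO 2 ended it (edgeR adjusted p = 0.124). Without WT 1 or WT 2, which leaves 1 wild type, the log2 fold change was -0.30 or -0.61. Leaving out KO 2 also cut the calls over all tested genes, from 1424 higher and 1483 lower to 807 and 1094. Without KO 1 those calls were 835 and 912, and Dsc2 still passed (log2 fold change -0.59, edgeR adjusted p = 0.0235). Why the Dsc2 call was lost without KO 2 was not tested.

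Within each library, Dsc2 therefore lost ground to Dsg2. The Dsc2 to Dsg2 ratio of counts was 0.245 and 0.227 for the wild types, against 0.167, 0.128 and 0.143 for the knockouts. The mean ratio was 1.62-fold lower in the knockouts, and the genotypes did not overlap. An exact permutation test over the libraries, two-sided, gave p = 0.2, which is the smallest p that 2 against 3 mice allow (adjusted p = 0.229 over 8 pairs tested). A ratio within a library does not depend on how that library is scaled.

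The other 7 desmosomal cadherin genes, which mark skin-type stratified epithelia, were near absent. Their counts summed to 24 and 20 in the wild types and to 75, 39 and 10 in the knockouts. Most of these were reads of Dsg3, the desmoglein of basal skin keratinocytes. Dsg3 stood at 0.679 and 0.767 CPM in the wild types and at 2.30, 1.68 and 0.545 CPM in the knockouts. It was the sole gene of the 7 to pass the filter and did not pass the test (log2 fold change 1.14 ± 0.54 SE, edgeR adjusted p = 0.167). Without KO 3, the library with the lowest Dsg3 level, it passed (log2 fold change 1.47, edgeR adjusted p = 0.0136), as it did with replicate number as a block (1.48, adjusted p = 0.00637). KO 3 is the sole library of its number, so the block takes it out of the genotype comparison. The block fit is therefore no separate check. Dsg1a and Dsg1b had 0 counts in all 5 libraries, and a count of 0 allows up to 3 counts, or 0.113 CPM in the deepest library and 0.234 CPM in the shallowest. Per kilobase of merged exons, Dsg2 made up 71.8% and 73.2% of the summed desmosomal cadherin signal in WT mice, against 78.4%, 82.4% and 81.4% in KO mice, and Dsc2 took 27.6% and 26.0% against 20.5%, 16.5% and 18.3%. Dsg2 was thus the dominant desmosomal cadherin transcript in every library.

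**Figure D2:**
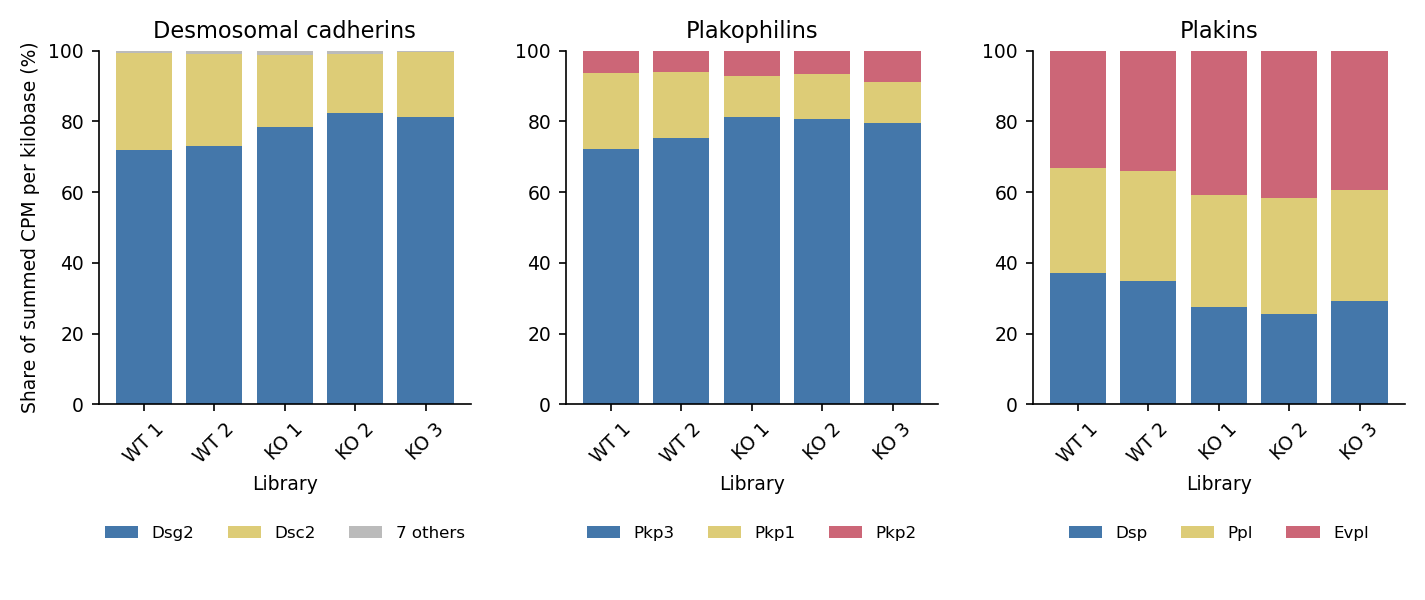
Share (%) of the summed CPM per kilobase of merged exons held by each gene within the desmosomal cadherins, the plakophilins Pkp1 to Pkp3 and the plakins Dsp, Ppl and Evpl, with 1 bar per library. Dsg2 and Pkp3 hold over 70% of their pools in every library, Dsc2 and Pkp1 hold less in each knockout than in each wild type, and Evpl holds more.

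Among the armadillo proteins, Jup (chromosome 11, 100368958 to 100397763) encodes plakoglobin, which binds desmosomal cadherins and also classical cadherins. It stood at 273 and 246 CPM in the wild types and at 372, 382 and 348 CPM in the knockouts. The genotypes were well apart, and the 3 knockouts varied little among themselves. Jup rose 1.42-fold (log2 fold change 0.50 ± 0.10 SE, edgeR adjusted p = 0.00833), a call lost without WT 2 (0.0630).

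The plakophilins split. Pkp1 (chromosome 1, 135871395 to 135919207), the plakophilin of the upper layers of stratified epithelia, stood at 33.2 and 30.2 CPM in the wild types and at 20.6, 25.4 and 17.8 CPM in the knockouts. It fell by 0.57 ± 0.15 (SE) on the log2 scale (edgeR adjusted p = 0.0228) and had the lowest fold change of the 10 genes. Leaving out WT 1, WT 2 or KO 1 ended the call (with edgeR, adjusted p = 0.184, 0.0675 and 0.0714).

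Pkp2 (chromosome 16, 16213318 to 16272712), the plakophilin of simple epithelia and heart muscle, stood at 10.4 and 10.5 CPM in the wild types and at 13.7, 14.2 and 14.6 CPM in the knockouts. Its libraries agreed closely within each genotype, and the genotypes did not overlap. It rose 1.36-fold (log2 fold change 0.44 ± 0.14 SE, edgeR adjusted p = 0.0476). Pkp2 was the least counted of the 10 genes, with 150 counts in WT 2, where counting error alone is 8.16%. Its call did not hold without any 1 of the 5 libraries (edgeR adjusted p = 0.0669 to 0.220) or in DESeq2 (adjusted p = 0.0898).

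Pkp3 (chromosome 7, 141078218 to 141090510), a plakophilin found through all layers of many epithelia, stood at 80.0 and 88.5 CPM in the wild types and at 104, 117 and 87.7 CPM in the knockouts. KO 3 lay between the wild types, so the genotypes overlapped. The log2 fold change of Pkp3 was 0.29 ± 0.13 (SE), short of the threshold (edgeR adjusted p = 0.129, 95% interval 0.01 to 0.57). Without KO 3 it passed (log2 fold change 0.37, edgeR adjusted p = 0.0256). With replicate number as a block, which also takes KO 3 out of the genotype comparison, it passed too (log2 fold change 0.39, edgeR adjusted p = 0.00741).

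Pkp3 was the main plakophilin of the 3. Per kilobase it made up 72.1% and 75.5% of the summed Pkp1 to Pkp3 signal in WT mice, against 81.2%, 80.8% and 79.4% in KO mice. Pkp1 took 21.6% and 18.5% of it in WT mice, against 11.6%, 12.6% and 11.6% in KO mice. Pkp2 took 6.32% and 6.01% against 7.23%, 6.59% and 8.94%. With the longest transcript as length, the order of Pkp1 and Pkp2 turned in the knockouts, with mean shares of 10.17% for Pkp1 and 10.97% for Pkp2.

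The Pkp1 to Pkp3 ratio of counts was 0.415 and 0.341 for the wild types, against 0.199, 0.217 and 0.203 for the knockouts, with no overlap. It was 1.83-fold lower in the knockouts, and the Pkp1 to Pkp2 ratio was 2.04-fold lower. The Pkp2 to Pkp3 ratio overlapped between genotypes (log2 difference 0.16). The exact permutation p of these 3 ratios was 0.2, 0.2 and 0.4 (two-sided, adjusted over 8 pairs 0.229, 0.229 and 0.4).

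Pkp4, a relative of the plakophilins that sits in both desmosomes and adherens junctions, stood at 105 and 103 CPM in the wild types and at 137, 142 and 117 CPM in the knockouts. It rose 1.27-fold (edgeR adjusted p = 0.0452), but leaving out WT 1, WT 2, KO 1 or KO 2 ended the call (with edgeR, adjusted p = 0.184, 0.165, 0.127 and 0.161). In both genotypes its level per kilobase (18.3 and 23.2 CPM per kilobase on average) was below that of Pkp3 (23.3 and 28.4) and above that of Pkp1 (6.31 and 4.23).

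**Figure D3:**
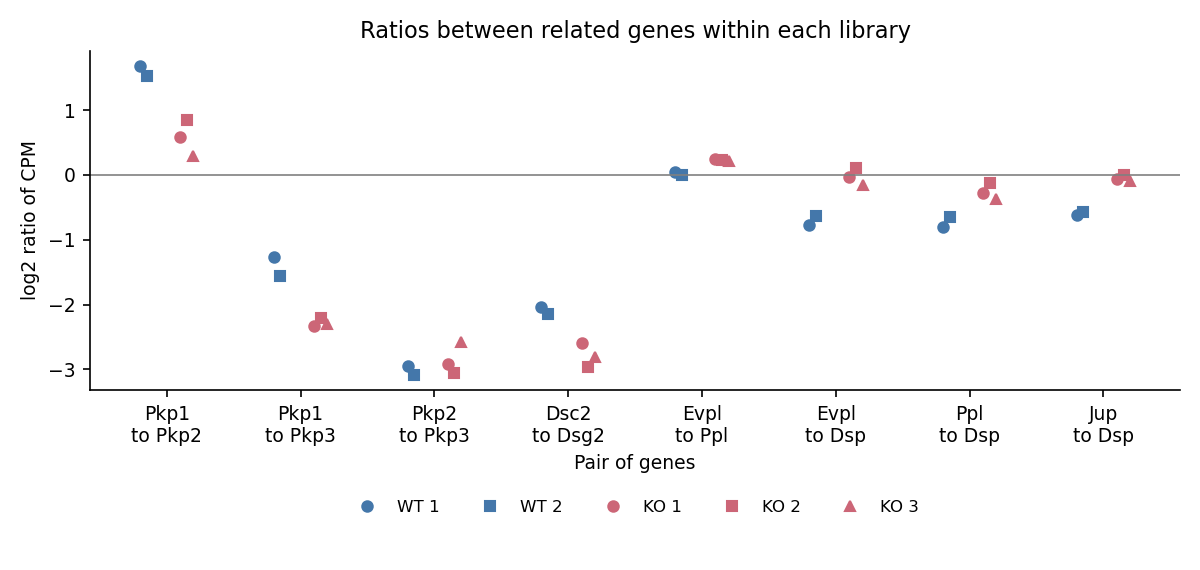
log2 ratio of CPM between related genes within each library, for 8 pairs; each point is 1 mouse, blue for the wild types and red for the knockouts. The genotypes are separate in 7 pairs and overlap for Pkp2 to Pkp3, and Evpl, Ppl and Jup all gain on Dsp in the knockouts. The pairs share genes, so they are not separate results. Taken singly, 51.0% of all tested genes showed no overlap in CPM, and the share over ratios of gene pairs was not computed.

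The plakins also moved apart. Dsp (chromosome 13, 38151294 to 38198577), the obligate keratin anchor of every desmosome, stood at 418 and 367 CPM in the wild types and at 387, 381 and 370 CPM in the knockouts. The 3 knockouts lay between the wild types. Its log2 fold change was -0.05 ± 0.10 (SE; edgeR adjusted p = 0.765), and the 95% interval of -0.28 to 0.18 leaves room for small changes in either direction.

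Evpl (chromosome 11, 116220559 to 116238077) stood at 246 and 236 CPM in the wild types and at 379, 408 and 331 CPM in the knockouts. Every knockout lay far above both wild types. Evpl had the highest fold change of the 10 genes, 1.55-fold (log2 fold change 0.63 ± 0.11 SE, edgeR adjusted p = 0.00460). It was the sole gene of the 10 whose call held without each library in turn (edgeR adjusted p up to 0.0452).

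Ppl (chromosome 16, 5086291 to 5132421), whose product pairs with envoplakin, stood at 239 and 235 CPM in the wild types and at 318, 349 and 285 CPM in the knockouts. It rose 1.34-fold (log2 fold change 0.42 ± 0.11 SE, edgeR adjusted p = 0.0238). Leaving out WT 1, WT 2, KO 1 or KO 2 ended its call (with edgeR, adjusted p = 0.130, 0.105, 0.0640 and 0.100). Evpl and Ppl had nearly equal counts in the wild types, with an Evpl to Ppl ratio of 1.03 and 1.00, and Evpl led in the knockouts, with ratios of 1.19, 1.17 and 1.16.

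Relative to Dsp, both plakins and Jup were higher in each knockout than in each wild type. The Evpl to Dsp ratio was 1.59-fold higher in the knockouts, the Ppl to Dsp ratio 1.38-fold and the Jup to Dsp ratio 1.46-fold. For each of these, and for Evpl to Ppl, the exact permutation p was 0.2 (two-sided, adjusted p = 0.229 over 8 pairs), the lowest that the design allows. Per kilobase, Evpl held 33.1% and 33.9% of the summed signal of the 3 plakins in WT mice, against 40.8%, 41.5% and 39.5% in KO mice. Dsp held 37.2% and 34.8% against 27.5%, 25.6% and 29.1%, and Ppl held 29.7% to 32.9% in all libraries. The leading plakin of the 3 per kilobase was thus Dsp in both wild types and Evpl in all 3 knockouts.

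Perp (chromosome 10, 18845020 to 18857073), also known as a target of p53 and p63, stood at 592 and 623 CPM in the wild types and at 655, 567 and 484 CPM in the knockouts. The knockouts spread on both sides of the wild types. The log2 fold change of Perp was -0.10 ± 0.13 (SE; edgeR adjusted p = 0.648, 95% interval -0.39 to 0.20).

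The order of levels can be read per kilobase of merged exons. Perp was highest by far, at 311 ± 11.4 (SD, n = 2) and 291 ± 43.8 (SD, n = 3) CPM per kilobase. In the wild types Dsp (40.7 ± 3.76), Jup (40.3 ± 2.97) and Evpl (37.7 ± 1.10) followed, and neighbours among these 3 overlapped between mice. Ppl (34.4 ± 0.352), Dsg2 (26.5 ± 2.42), Pkp3 (23.3 ± 1.66), Dsc2 (9.83 ± 1.42), Pkp1 (6.31 ± 0.427) and Pkp2 (1.94 ± 0.0081) came next, each separate from its neighbours. In the knockouts Evpl (58.4 ± 6.03) and Jup (57.0 ± 2.70) came after Perp and overlapped, Ppl (46.0 ± 4.66) and Dsp (39.3 ± 0.901) followed, and Dsg2 (31.2 ± 0.865) overlapped with Pkp3 (28.4 ± 4.10). The lowest 3 were again Dsc2 (7.16 ± 1.14), Pkp1 (4.23 ± 0.768) and Pkp2 (2.64 ± 0.0910). These levels depend on the length used: with the longest transcript, Jup stood at 80.9 and 115 CPM per kilobase, ahead of Dsp and Evpl in both genotypes, and in the knockouts Pkp2 (4.83) stood above Pkp1 (4.56).

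KO 3 was the lowest of the 3 knockouts for 8 of the 10 genes, all but Pkp2 and Dsc2. In that library 8 basal cell markers summed to 3797 CPM, against 5567 and 6370 in KO 1 and KO 2 and 3961 and 4706 in WT 1 and WT 2. The part of these markers in the levels of KO 3 was not tested. By the root mean square distance between log2 CPM profiles, centred per gene over the 5 libraries, Jup and Ppl were each other's nearest of the 10 (0.08), and Evpl was nearest to Jup (0.08) and farthest from Pkp1 (0.60). Pkp1 was nearest to Dsc2, but at 0.27. Over 14702 other genes, the profiles nearest to Evpl were those of Cbx6, Shisa5 and Desi1 (0.02 to 0.03).

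Markers of some cell types in these samples moved with genotype. Of 11 pan-epithelial genes, such as Epcam and Cdh1, 4 rose and none fell (median log2 fold change 0.34; 9 of 11 had all knockouts above all wild types). Their summed level was 4710 and 5402 CPM in the wild types and 6115 to 6751 in the knockouts. Of 7 umbrella cell markers, 6 rose (median log2 fold change 0.62), and all 7 had every knockout above every wild type. Over all tested genes, 25.9% had the knockouts above. All 10 fibroblast markers fell (median log2 fold change -0.73), as did 4 of 8 endothelial markers (median -0.47). Other types moved less clearly. Of 8 basal cell markers 1 rose and 2 fell (median 0.20), and of 8 leukocyte markers tested 2 fell (median -0.38). Of 8 smooth muscle markers 1 fell (median 0.04), and none of 5 glial markers passed (median -0.39). When libraries were scaled to equal levels of the 11 pan-epithelial genes, the log2 fold changes of all genes moved down by 0.36 at the median. Of all 14779 tested genes, 426 then rose and 6315 fell, so falls among the 10 genes are to be read against that share. On that scale none of the 10 desmosome and plakin genes rose (an unadjusted p under 0.05 for Evpl alone) and 4 fell: Pkp1 by 0.93 (edgeR adjusted p = 0.00193), Dsc2 by 0.82 (0.00311), Perp by 0.45 (0.0153) and Dsp by 0.41 (0.0180). Evpl stayed highest at 0.27 (edgeR adjusted p = 0.0798), and Jup, Pkp2 and Ppl stood at 0.14, 0.08 and 0.07. The signs of Dsg2 (-0.12) and Pkp3 (-0.06) turned, while those of the other 8 stayed. Pkp1 and Dsc2 were thus lower under both scalings. Since pan-epithelial scaling moved log2 fold changes down, genes lower under TMM scaling stayed lower, so this is no separate check. The calls of Jup, Ppl, Evpl and Pkp2 under TMM scaling were not made with pan-epithelial scaling. The part of tissue makeup in these results was not tested.

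**Figure D4:**
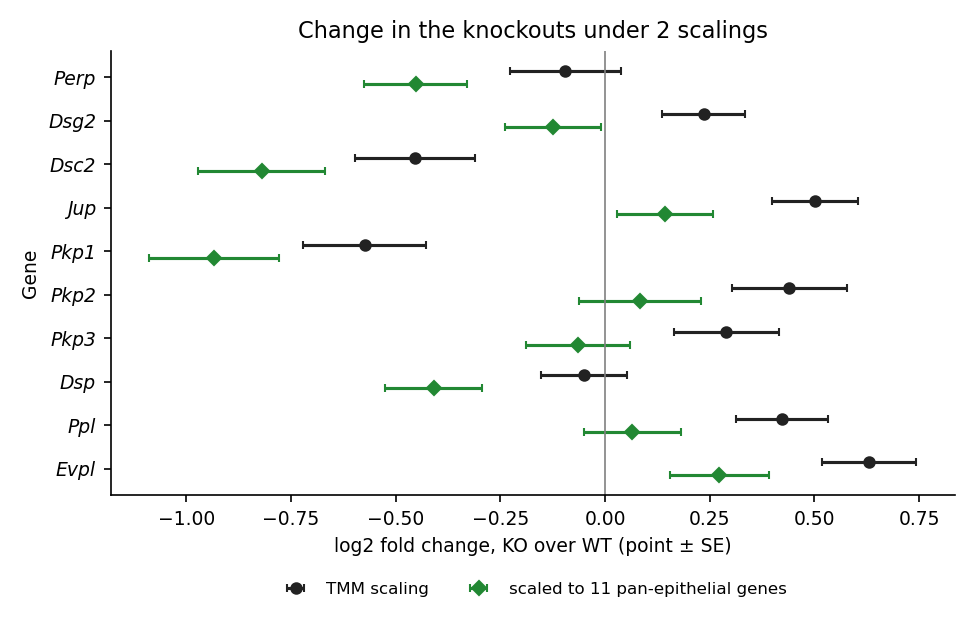
log2 fold change of the knockouts over the wild types (point ± SE) for the 10 genes, with TMM scaling (black) and with libraries scaled to 11 pan-epithelial genes (green). Pkp1 and Dsc2 lie below 0 on both scales, and Evpl lies at 0.63 on the first and 0.27 on the second. The second scale moves log2 fold changes down, so genes below 0 on the first stay below 0.

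Of 10 further desmosome genes, 3 passed the filter and 2 rose. Besides Pkp4 this was Kazn, which encodes kazrin, a binding partner of periplakin. Kazn stood at 54.3 and 48.7 CPM in the wild types and at 80.4, 80.5 and 79.7 CPM in the knockouts, and it rose 1.56-fold (edgeR adjusted p = 0.00178; 0.0658 with pan-epithelial scaling). Cdsn, the corneodesmosin gene of skin, had 9 counts or fewer in every library and was not tested.

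Among 4 other plakins, 2 fell and 2 did not pass. Eppk1 (epiplakin) went from 14.6 and 11.3 CPM in the wild types to 6.62, 7.04 and 8.10 CPM in the knockouts, 1.80-fold lower (edgeR adjusted p = 0.00882). Macf1, which links actin and microtubules, was 1.35-fold lower (edgeR adjusted p = 0.0398). Plec and Dst, the plakins of hemidesmosomes, stood at log2 fold changes of 0.05 and -0.24, short of the threshold (edgeR adjusted p = 0.821 and 0.226), and with pan-epithelial scaling at -0.31 and -0.60, where Dst passed (edgeR adjusted p = 0.00932). The plakins that rose and those that fell were thus different genes of 1 family. Without WT 1, neither Eppk1 (edgeR adjusted p = 0.139) nor Macf1 (0.322) passed, and Macf1 did not pass without KO 1 (0.126) or KO 2 (0.0932). Exons of Eppk1 overlap those of BC024139 over 5.51% of their length, so reads there cannot be told apart with certainty.

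Desmosomes lie beside adherens junctions, and hemidesmosomes tie the basal cells to the matrix. Of 12 adherens junction genes, 1 rose and none fell: Cdh3 (P-cadherin), 2.32-fold (edgeR adjusted p = 0.00218). Of 9 hemidesmosome genes, none rose and 2 fell: Lamb3 and Itga6, by 0.37 and 0.34 on the log2 scale (edgeR adjusted p = 0.0173 and 0.0300). The Lamb3 call ended on leaving out WT 1, WT 2 or KO 1 (with edgeR, adjusted p = 0.0676, 0.0725 and 0.0682). The Itga6 call ended on leaving out WT 1, KO 1 or KO 2 (with edgeR, adjusted p = 0.212, 0.0803 and 0.0741).

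Keratins are the filaments that desmosomes hold. Of 14 listed, 11 were tested and 1 rose, the basal keratin Krt14, 32.9-fold (edgeR adjusted p = 0.000469), while Krt4 was 2.60-fold lower (edgeR adjusted p = 0.0191). Krt14 stood at 1.78 and 3.14 CPM in the wild types and at 86.3, 117 and 31.2 CPM in the knockouts. With robust estimation its call lay at the threshold (edgeR adjusted p = 0.0495). The Krt4 call ended with robust estimation (edgeR adjusted p = 0.194), in DESeq2 (0.0918) and on leaving out WT 1 (0.123) or WT 2 (0.0925). Of 9 cornified envelope genes in the files, 4 were tested. Sprr1a, a precursor protein of that envelope, rose 1.94-fold (edgeR adjusted p = 0.00119). Tgm5, a transglutaminase gene, fell from 4.02 and 3.07 CPM to 0.565, 0.601 and 0 CPM (edgeR adjusted p = 0.00478; 0.0884 without WT 1).

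Of 13 p53 targets, listed because Perp is one, 2 rose and none fell. Pmaip1 (the apoptosis gene Noxa) rose 1.54-fold (edgeR adjusted p = 0.00959) and Ccng1 (cyclin G1) rose 1.33-fold (edgeR adjusted p = 0.0263). The Pmaip1 call ended on leaving out WT 1 or WT 2 (with edgeR, adjusted p = 0.0517 and 0.0770) and with pan-epithelial scaling (0.159). The Ccng1 call ended on leaving out WT 1, WT 2, KO 1 or KO 2 (with edgeR, adjusted p = 0.124, 0.125, 0.0895 and 0.0609) and with pan-epithelial scaling (0.695). Of 11 epithelial transcription factors, 5 rose and none fell. The Grainyhead-like factors of epithelial barriers were among them, Grhl3 at 2.13-fold (edgeR adjusted p = 0.000125) and Grhl1 at 1.46-fold (0.0112). Klf4 rose 1.88-fold (edgeR adjusted p = 0.00158) and Elf3 rose 1.47-fold (0.00530). Leaving out WT 2 ended the call of Grhl1 (edgeR adjusted p = 0.0923) and leaving out WT 1 that of Elf3 (0.0681), and pan-epithelial scaling ended both (0.256 and 0.133).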

How the data were processed

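Bladder urothelium of 2 wild-type and 3 Ncstn knockout mice was measured by RNA-seq, 1 library per mouse as the design text describes. The deposited values were raw gene counts, made with HISAT2 2.1.0 and HTSeq 0.11.1 on build mm10, with DESeq2 also named, per the submitters' processing notes. Annotation and strand setting were not given in the sources used here. Without strand, reads of Dsg2 and its antisense gene Gm16090, which overlap over 3.99% of the Dsg2 exon length, cannot be told apart.

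The 5 tally rows were left out. Low genes were removed by filterByExpr (count 10, total 15), and libraries were scaled with TMM factors (0.978 to 1.03) and tested with edgeR 4.0.16 (quasi-likelihood, R 4.3.3); SE is the log2 fold change over the root of the F statistic. Levels per length used merged GENCODE vM21 exons on GRCm38 (98.3% of genes matched). Ratios were tested exactly over libraries. The test was checked on simulated data.

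The members, lists and tests were chosen with earlier results of these data known. All 10 members are named, as are the other tested desmosome and plakin genes and up to 4 passing genes with the smallest p of each further list; Cdsn was added after its values were seen. The genes with profiles nearest to Pkp1 are not reported here. Alternatives were RLE, upper-quartile and pan-epithelial scaling, no filter, a filter at 5 CPM in 2 libraries, a robust fit, DESeq2 1.42.0, limma-voom (limma 3.58.1), replicate number as a block, omission of each library, CPM + 1 for ratios and the longest transcript for lengths.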

Additional observations from a re-analysis of the deposited data

How the results depend on the processing

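Among the 10 genes, 4 rose and 2 fell. Across RLE and upper-quartile scaling, both filters, the robust fit, DESeq2 and limma-voom, 3 or 4 rose and 2 fell. Pkp2 was the gene lost (edgeR adjusted p = 0.0510 with RLE). In those fits, 1035 to 1876 of the 11730 to 19985 tested genes rose and 1354 to 1983 fell. With pan-epithelial scaling 0 rose and 4 fell, where 426 of all 14779 tested genes rose and 6315 fell. Without KO 1, KO 2 and KO 3 in turn, 2, 2 and 4 rose and 1, 1 and 2 fell. Over all tested genes 835, 807 and 1743 then rose and 912, 1094 and 2246 fell, against 1424 and 1483 with all libraries. Leaving out a wild type leaves 1 in that group, and calls were fewer over all tested genes too. With replicate number as a block 5 rose and 2 fell, where 2211 of all 14779 tested genes rose and 2426 fell. The numbers share no source in the labels, and deviations of same-numbered mice correlated at -0.097 and 0.090 across genes. KO 3 is the sole library of its number, so the block fit draws the genotype change from the other libraries. Of the 65 tested genes of 8 further lists, 12 rose and 6 fell, where 9.64% and 10.0% of all tested genes did. The list counts were 5 and 16 with pan-epithelial scaling, 20 and 7 without a filter, and 25 and 9 with the block. Without KO 1, KO 2 and KO 3 in turn, 9, 10 and 23 rose and 3, 4 and 8 fell. Calls over all tested genes moved too, to 1876 and 1983 without a filter.

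The log2 fold change turned sign for Perp with the block (0.0049) and for Pkp3 (-0.065), Dsg2 (-0.12), Pkp4 (-0.014) and Plec (-0.31) with pan-epithelial scaling. Without 1 library, Dsp ran from -0.16 to 0.042 (positive without WT 1) and Plec from -0.091 to 0.18 (negative without WT 2 or KO 2). The cause was not tested. Over 30 named genes and 14 alternatives, 344 of 418 values kept direction and side of the threshold, 59 lost it, 7 gained it and 8 changed sign.

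The log2 ratio differences kept their sign with CPM + 1 and without each library: Pkp1 to Pkp2 -1.17 to -0.89, Pkp1 to Pkp3 -1.01 to -0.73, Pkp2 to Pkp3 0.03 to 0.26, Dsc2 to Dsg2 -0.80 to -0.61, Evpl to Ppl 0.19 to 0.23, Evpl to Dsp 0.61 to 0.74, Ppl to Dsp 0.38 to 0.55 and Jup to Dsp 0.52 to 0.57. Shares changed by -9.61 to -6.58 (Pkp1), 6.66 to 7.67 (Evpl) and -9.39 to -7.43 (Dsc2) percentage points without 1 library, and by -7.18, 6.83 and -7.32 points with the longest transcript, against -8.09, 7.11 and -8.37 with merged exons.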
